A study of Mus musculus with 117 samples.

Results

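At 9 weeks of age, RNA levels in the submandibular gland were compared between NOD-scid and B6-scid mice, over every probe set of 3 Affymetrix array designs of the MG-U74 version 2 family, here A, B and C. The comparison used 10 of the 39 gland samples of the study, chosen by strain, gland and age in the sample labels: 5 individual NOD.CB17-Prkdc scid/J females and 5 individual B6.CB17-Prkdc scid/SzJ females, each read once on each design. Both strains carry the scid allele of Prkdc, a DNA repair kinase that lymphocytes need to assemble antigen receptors, so mice of both groups are known to lack mature T and B cells. The 2 groups differ in their whole NOD or C57BL/6 background, and no group separates 1 locus from the rest. Per the labels, the glands had been freed of sublingual gland, connective tissue and fat. The question was which transcripts differ between the disease-prone and the control gland where lymphocytes are missing.

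The submandibular gland makes saliva in acini, whose cells secrete fluid, mucin-like proteins and peroxidase, and modifies it in ducts, which move salt and, in the granular ducts of rodents, store kallikreins and epidermal growth factor. Mucins carry chains of sugars built in the Golgi apparatus and often capped with sialic acid. NOD mice with an intact immune system are known for autoimmune diabetes and for lymphocyte foci in the salivary and lacrimal glands. The array signal measures RNA in the whole gland, where fewer cells of a type and less RNA per cell cannot be told apart.

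All 30 arrays came at a common scale, and levels below are signals at a 2% trimmed mean of 500 per array. The share of probe sets with a signal of at least 100 was 65.7% to 68.5% on A, 75.4% to 77.8% on B and 65.9% to 74.2% on C. The submandibular markers were present in all 10 mice: the summed signal of the 5 measured acinar markers (of 8 listed) was 261927 to 504892 in B6-scid and 335311 to 560920 in NOD-scid, and that of the 4 measured granular duct markers 201742 to 346371 and 257489 to 401837. Prkdc itself read 22.4 to 145 in B6-scid and 17.5 to 109 in NOD-scid (log2 difference -0.17, SE 0.36, adjusted p = 0.913), near the lowest signals, which checks nothing about the allele. Of the 6 measured T and B cell markers, Cd3d and Cd8a were under 100 in all 10 mice and Cd3e in 3. Cd79a (281 to 850), Ms4a1 (157 to 429) and Ighm (545 to 962), of B cells, were above 100 in all 10, with no call between the strains for these 3 or Cd3e. The 6 measured pancreatic enzyme markers summed to 155539 in NOD-scid mouse 1, against 9491 to 18386 in the other NOD-scid mice and 3817 to 14342 in B6-scid. Of 3 markers listed for sublingual gland 2 were measured, Smgc (listed as Muc19) and Bpifb2. They summed to 137038 in B6-scid mouse 1 and 8884 to 29055 in the other B6-scid mice, against 43364 to 72138 in NOD-scid. Smgc gave most of that sum, at 7715 to 135091 in B6-scid and 43152 to 71020 in NOD-scid (log2 difference 1.11, adjusted p = 0.488 by limma). Bpifb2 went the other way, at 830 to 1948 and 212 to 1118 (-1.42, adjusted p = 0.0712). Smgc is named for the submandibular gland (submandibular gland protein C), so this sum does not mark sublingual gland alone. The part of sublingual tissue in these values was not tested. The 3′ to 5′ signal ratio of Actb on design A, which rises as RNA is broken, was 2.76 and 4.34 in B6-scid mice 5 and 4 and 2.11 and 2.87 in NOD-scid mice 5 and 4, against 1.54 to 2.02 in mice 1 to 3 of both strains. None of 23 such sums, ratios and correlations differed between the strains after Benjamini-Hochberg adjustment (exact two-sided permutation tests, lowest adjusted p = 0.365). The smallest p that 5 against 5 mice allow is 0.00794, so no single measure among 23 could have passed on its own. The lowest unadjusted values were 0.0238 for the mean correlation within groups on design B and 0.0317 for the myoepithelial sum. The correlations of a group share pairs of mice and are not independent, so their p-values are descriptive only.

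**Figure D1:**
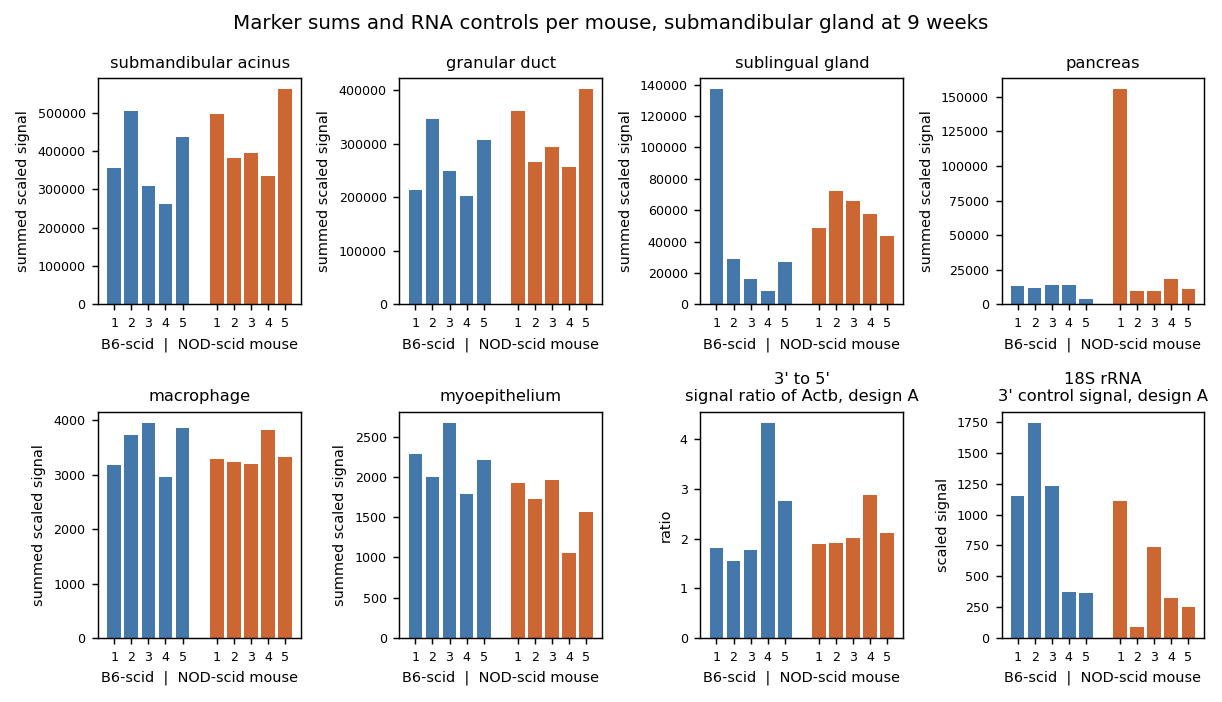
Summed signals of marker genes, the 3′ to 5′ ratio of Actb and the 18S rRNA control signal, 1 bar per 9-week mouse, in arbitrary units of signal scaled to a trimmed mean of 500 (the ratio has no unit), all axes from 0. The pancreatic sum stands at 155539 in NOD-scid mouse 1. The sum listed as sublingual gland, most of it Smgc and so not of that gland alone, stands at 137038 in B6-scid mouse 1. The acinar and granular duct sums of the strains overlap.

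A difference below is the mean of log2(signal + 32) in NOD-scid minus that in B6-scid with its standard error (SE), from limma fitted to the 20 submandibular samples of 9 and 15 weeks, and it understates the change of low signals. A probe set was called when its p, adjusted by Benjamini-Hochberg over the 3 designs, was under 0.05. Of 32136 probe sets tested, 359 were called (1.12%), 158 higher in NOD-scid (0.492%) and 201 lower (0.625%). Of these, 288 differed by at least 2-fold and 71 by at least 4-fold, 35 up and 36 down. In 292 of the 359, no NOD-scid mouse overlapped a B6-scid mouse, as in 2.1% of all probe sets tested. The calls came to 221 of 9787 on design A, 90 of 11565 on design B and 48 of 10784 on design C. They named 273 genes, while 60 called probe sets have no gene symbol and 12 have several. The median difference of all probe sets was 0.03.

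**Figure D2:**
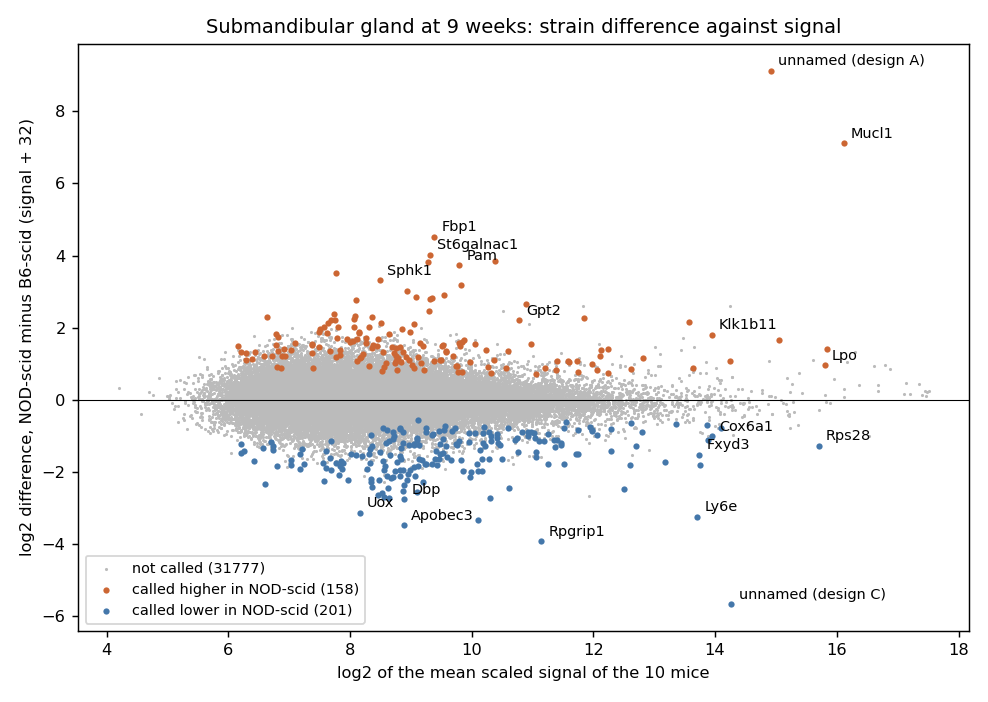
Difference between the strains at 9 weeks (NOD-scid minus B6-scid, log2 of signal + 32) against mean level (log2), 1 point per tested probe set, with called probe sets coloured by direction. The 158 higher and 201 lower calls lie over most of the range of levels, and Mucl1 at 7.12 is the largest difference with a gene symbol.

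The strains differed by degree for most calls: 207 of the 359 had a signal of at least 100 in all 10 mice. A further 16 were under 100 in all B6-scid and at least 100 in all NOD-scid mice, among them Fbp1, St6galnac1, Sphk1, Pafah2, Ank3, Tlr6, an innate receptor for bacterial lipopeptides, and Pglyrp1, a peptidoglycan recognition protein. The reverse held for 8, among them Apobec3, Uox, Rrm2b, a subunit of ribonucleotide reductase, and Ctsc, a lysosomal protease. Only 8 calls had means of at least 10000 in both strains. A probe set was tested only if enough arrays reached a signal of 100, and the arrays of either strain alone could meet that filter. The shares of these patterns over all probe sets tested were not counted. How far the filter and the choice of calls shape these counts was not tested.

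Among secreted products, Mucl1 changed most. It encodes a small mucin-like protein. Its signal was 1286, 621, 1988, 615 and 852 in the B6-scid mice and 152589, 132191, 128000, 111822 and 180122 in the NOD-scid mice, in the order of mouse 1 to 5 used throughout. Every NOD-scid gland was thus far above every B6-scid gland, and the step was 139-fold on the log2(signal + 32) scale (log2 difference 7.12, SE 0.35, adjusted p = 7.2e-11). Lpo, the lactoperoxidase of saliva, was 36133, 26304, 43285, 51329 and 39354 in the B6-scid mice and 75403, 75914, 67202, 70238 and 85562 in the NOD-scid mice. The strains did not overlap, and Lpo rose by 0.96 (SE 0.21, adjusted p = 0.0232). That call ended without B6-scid mouse 1 or 2 or NOD-scid mouse 5 (adjusted p up to 0.0592), and under quantile normalization (adjusted p = 0.444). Lists were counted with 1 probe set per gene, on which 1.42% of all 14762 genes were called, 0.569% higher and 0.854% lower, and 12.7% had an unadjusted p under 0.05. Mucl1 and Lpo were the 2 called of 22 tested submandibular saliva genes, both higher, with a list median of 0.15 (-0.03 under quantile normalization, and up to 0.23 over the alternatives). Aqp5, the water channel of acinar cells, read 1578 to 2973 in B6-scid and 2375 to 3015 in NOD-scid and overlapped (log2 difference 0.16, SE 0.23, adjusted p = 0.862).

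Genes of mucin sugar chains held 4 called of 38 tested, 3 up and 1 down. St6galnac1, which puts sialic acid on the first sugar of a mucin chain, read 54.7, 28.6, 53.2, 63.9 and 28.3 in the B6-scid mice and 1109, 1429, 1002, 1559 and 1047 in the NOD-scid mice. No B6-scid value reached 100 and no NOD-scid value was below 1000 (log2 difference 4.03, SE 0.24, adjusted p = 1.4e-09). Gcnt1, which starts the core 2 branch of such chains, read 112, 295, 40.8, 315 and 236 in the B6-scid mice and 1095, 1130.1, 1069, 1014 and 1016 in the NOD-scid mice. The NOD-scid mice lay in a narrow band above all B6-scid mice (log2 difference 2.45, SE 0.34, adjusted p = 4.0e-04). A second probe set of Gcnt1 was also called at 1.21, and the remaining ones read 0.04 and -0.39 without a call. Slc35a1, which carries activated sialic acid into the Golgi, rose from a mean of 454 ± 114 in B6-scid to 985 ± 134 in NOD-scid (± SD, n = 5 per strain; 1.09, adjusted p = 0.00116). Fut9, a fucosyltransferase of the Lewis x structure, fell, with overlap between the strains (log2 difference -1.95, SE 0.43, adjusted p = 0.0233). Its call ended without B6-scid mouse 1 or NOD-scid mouse 1, 2, 3 or 5 (adjusted p up to 0.0676), and its other probe set read 0.53. The list median was 0.09, and 15 of the 38 had an unadjusted p under 0.05, 9 higher and 6 lower.

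Tissue kallikreins and growth factors of the granular ducts gave 1 call among 12 tested genes, and 11 of the 12 differences were above 0, with a median of 0.67 (0.37 to 0.98 over the alternatives). By limma 7 of the 12 had an unadjusted p under 0.05, all higher in NOD-scid, where 6.72% of all genes were. Klk1b11, a glandular kallikrein, read 3062, 5383, 7746, 7390.1 and 14784 in the B6-scid mice and 21950.2, 21064, 20965, 25506 and 29452 in the NOD-scid mice. All NOD-scid mice were above all B6-scid mice (log2 difference 1.80, SE 0.42, adjusted p = 0.0372), but the call ended without B6-scid mouse 1, 2, 3 or 4 or NOD-scid mouse 1 to 5 (adjusted p up to 0.102). Egf, the epidermal growth factor, read 3705, 5646, 5448, 7660.3 and 8605 in the B6-scid mice and 12140.4, 24294, 13312, 16269.7 and 14100.4 in the NOD-scid mice. The strains did not overlap, yet the difference of 1.38 did not pass (SE 0.39, adjusted p = 0.108). The 2 other probe sets of Egf read 0.41 and 0.64, also without a call. Klk1, the main tissue kallikrein, overlapped at 115211 to 241734 in B6-scid and 135748 to 228889 in NOD-scid (log2 difference 0.12, SE 0.21, adjusted p = 0.893). Kallikrein genes are near-identical copies, so a probe set named for 1 of them may read several.

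Transcripts best known from parotid and sublingual saliva gave 2 calls among 9 tested genes, both lower in NOD-scid, and a list median of 0.06 that was -0.14 under quantile normalization and -0.40 without B6-scid mouse 1. Amy1, salivary amylase, read 473, 363, 348, 1812 and 579 in the B6-scid mice and 289.5, 117, 91.9, 145 and 160.4 in the NOD-scid mice, so that B6-scid mouse 4 stood above its group (log2 difference -1.74, SE 0.35, adjusted p = 0.0142). Without the mice numbered 4 and 5, its adjusted p was 0.102, and in the fit of all 39 gland samples 0.658. Dnase1, a nuclease of saliva, read 1398, 357, 551, 1109 and 669 in the B6-scid mice and 102, 127, 62.8, 457 and 81.1 in the NOD-scid mice, and NOD-scid mouse 4 overlapped B6-scid (log2 difference -2.24, SE 0.50, adjusted p = 0.0299). Its call ended without B6-scid mouse 1 or 4 or NOD-scid mouse 1, 2, 3 or 5 (adjusted p up to 0.0883). Bpifa2, the parotid secretory protein, read 6825, 1646, 2681, 15668 and 7922 in the B6-scid mice and 1184, 563, 475, 1483 and 618 in the NOD-scid mice. No NOD-scid mouse reached the lowest B6-scid mouse, but the spread within B6-scid was wide and the test did not pass (log2 difference -2.68, SE 0.70, adjusted p = 0.0741). The summed parotid markers Amy1, Prpmp5, Bpifa2 and Car6 ran from 99302 to 192752 in B6-scid and from 112714 to 179424 in NOD-scid. Car6 alone gave most of that sum, at 81613 to 190410 in B6-scid and 110838 to 178143 in NOD-scid, so it says little of the other 3. The part of parotid tissue in these values was not tested.

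Pancreatic enzymes gave no call among 19 tested genes by limma, and 5 had an unadjusted p under 0.05. The list median was 0.83 with 18 of 19 differences above 0, and it ran from 0.10, without NOD-scid mouse 1, to 1.15 over the alternatives. Cela1, pancreatic elastase, read 1522, 2039.6, 2548, 2027 and 327 in the B6-scid mice and 19646, 1567, 1563, 2227 and 1635 in the NOD-scid mice (log2 difference 0.99, SE 0.67, adjusted p = 0.637). Ctrc, a chymotrypsin, read 57.6 to 764 in B6-scid and 260.4 to 9699 in NOD-scid (log2 difference 2.46, SE 0.70, adjusted p = 0.105), its highest value again in NOD-scid mouse 1.

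Genes of hormone processing and granule release gave 3 calls among 36 tested, with Pam higher in NOD-scid and P2rx4 and Vamp8 lower. Pam, which amidates the ends of peptide hormones, read 179, 69.6, 77.1, 20.5 and 185 in the B6-scid mice and 1601, 2482, 1818, 931 and 1508 in the NOD-scid mice. Every NOD-scid value was at least 930.6 and every B6-scid value at most 184.8 (log2 difference 3.74, SE 0.33, adjusted p = 1.1e-06). Cpe, carboxypeptidase E, which trims peptide precursors, fell on 1 of 4 probe sets, not the one that stood for it in that count (log2 difference -1.16, SE 0.26, adjusted p = 0.0278, 443 to 664 in B6-scid and 156 to 273 in NOD-scid), a call that ended without B6-scid mouse 1, 2, 4 or 5 or NOD-scid mouse 2 or 5 (adjusted p up to 0.0747). Vamp8, a granule fusion protein, fell on both of its probe sets, at -0.83 (adjusted p = 0.0429) and -0.65 (adjusted p = 0.0491), with overlap on the first. P2rx4, a cation channel opened by ATP, fell without overlap (log2 difference -0.63, SE 0.14, adjusted p = 0.0372). The call of the first Vamp8 probe set ended without B6-scid mouse 1, 3, 4 or 5 or NOD-scid mouse 1, 2, 3 or 5, or B6-scid mouse 1, 3 or 4 or NOD-scid mouse 1 to 5 of 15 weeks (adjusted p up to 0.108), and that of P2rx4 without B6-scid mouse 1, 4 or 5 or NOD-scid mouse 1, 2, 3 or 5, or NOD-scid mouse 3 of 15 weeks (adjusted p up to 0.0907). The second, which stood for Vamp8 in the count, lost its call in 17 of the 20 fits that left out 1 library (adjusted p up to 0.126). The exceptions were the fits without NOD-scid mouse 4, NOD-scid mouse 5 or B6-scid mouse 1 of 15 weeks.

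The called members of the ion transport and duct lists all fell. Of 35 water and ion transport genes these were 2. Fxyd3, a small regulator of the sodium pump, read 19476, 12937, 13283, 27797 and 29216 in the B6-scid mice and 6397, 4679, 5823, 9743 and 7765 in the NOD-scid mice. The highest NOD-scid gland was below the lowest B6-scid gland, although mice 4 and 5 of both strains were above mice 1 to 3 (log2 difference -1.53, SE 0.24, adjusted p = 0.00156). Kcnn4, a potassium channel opened by calcium, read 5105, 5854, 6758, 4978 and 5861 in the B6-scid mice and 2759, 3122, 2868, 2784 and 2716 in the NOD-scid mice. Values within each strain were close and the strains apart (log2 difference -0.99, SE 0.17, adjusted p = 0.00292), while the other probe set read -0.47 (adjusted p = 0.493).

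Of 29 duct and myoepithelial genes 4 fell and none rose, with a list median of -0.21 (-0.32 to -0.17 over the alternatives). Krt23, a keratin, read 10664, 7724, 6159, 7329 and 4830.2 in the B6-scid mice and 3088, 2659, 2195, 3432 and 2029 in the NOD-scid mice, without overlap (log2 difference -1.42, SE 0.28, adjusted p = 0.0126). Krt7, a keratin of ducts, read 1191 to 1824 in B6-scid and 701 to 984 in NOD-scid (-0.75, adjusted p = 0.0262). Elf3, an epithelial transcription factor, read 1157 to 2679 in B6-scid and 435 to 1039 in NOD-scid (-0.998, adjusted p = 0.0463). The other probe set of Elf3 read -0.29 (adjusted p = 0.830). Foxi1, a factor of acid-secreting and ionocyte cells, read 766 to 1679 in B6-scid and 124 to 1100.4 in NOD-scid and overlapped (-1.69, adjusted p = 0.0472). The call of Krt7 ended without B6-scid mouse 1 or 2 or NOD-scid mouse 1 or 5 (adjusted p up to 0.0699). That of Elf3 ended without B6-scid mouse 1, 2 or 3 or NOD-scid mouse 1, 4 or 5, or B6-scid mouse 2, 3, 4 or 5 or NOD-scid mouse 1 to 5 of 15 weeks (adjusted p up to 0.112), and that of Foxi1 without B6-scid mouse 1, 3, 4 or 5 or NOD-scid mouse 1, 2, 3 or 5, or B6-scid mouse 1, 2, 3 or 4 or NOD-scid mouse 1 to 5 of 15 weeks (adjusted p up to 0.124). Of the other measured keratins, Krt8 read -0.49 and Krt18 -0.40 without a call. The summed myoepithelial markers were 1793 to 2676 in B6-scid and 1052 to 1969 in NOD-scid (exact permutation p = 0.0317, adjusted p = 0.365), with Krt14 under 100 in all 10 mice and Krt5 in 9. The part of myoepithelial cells in the duct list was not tested. Fgfr2, the fibroblast growth factor receptor of gland branching, was the 1 call among 43 growth and patterning genes, on 1 of several probe sets (log2 difference -1.25, SE 0.24, adjusted p = 0.0104). Its adjusted p was 0.0990 without mice 4 and 5.

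**Figure D3:**
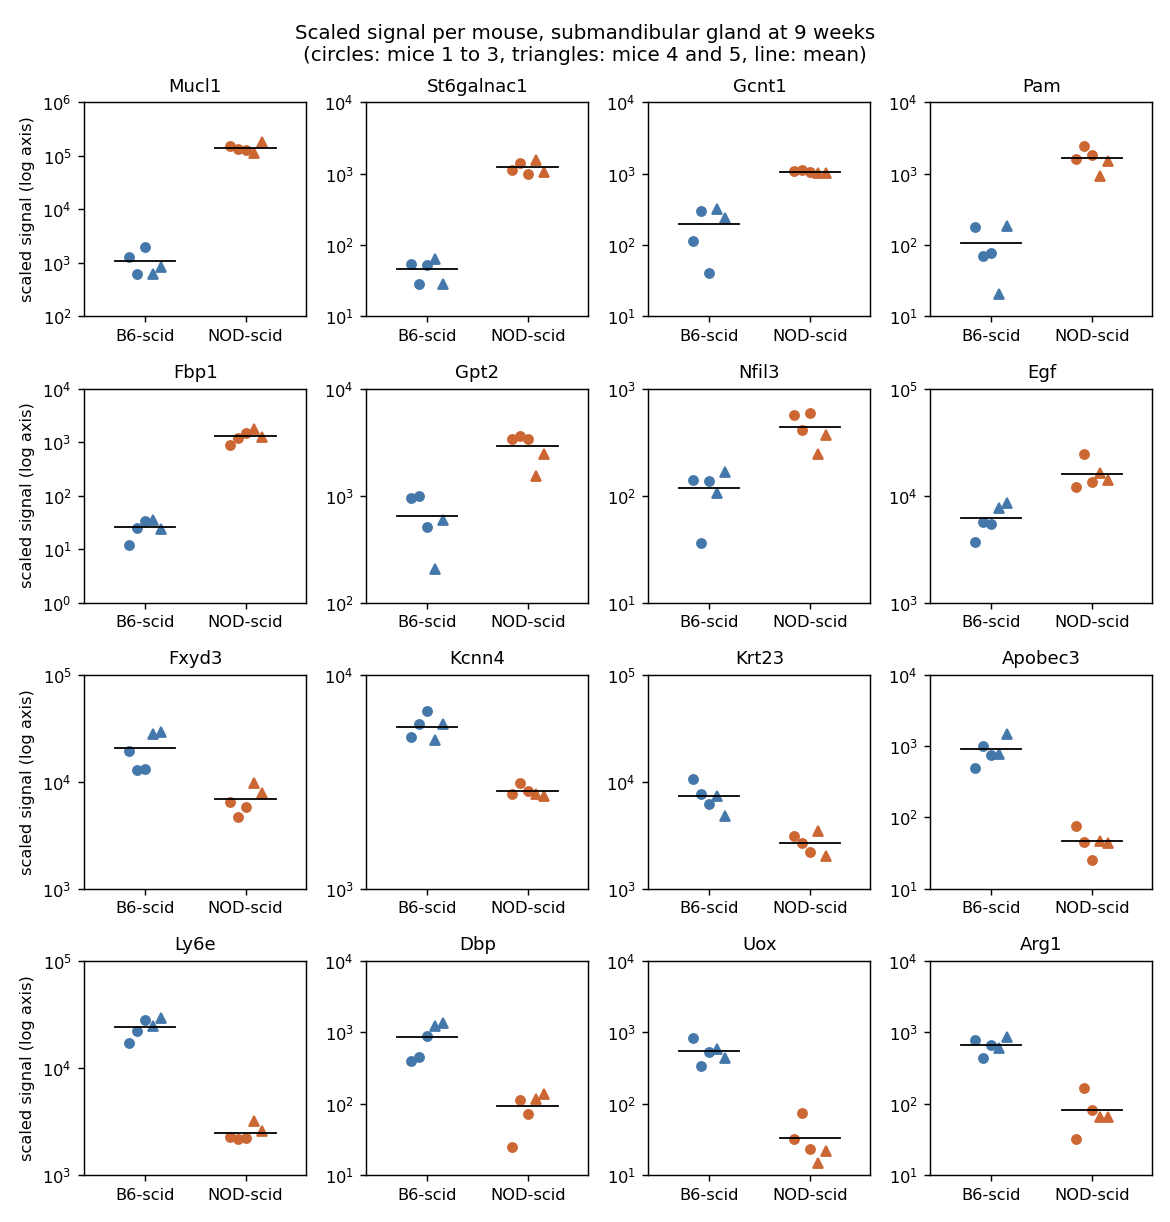
Scaled signal of 16 genes in each 9-week mouse on a log axis, B6-scid beside NOD-scid, with circles for mice 1 to 3, triangles for mice 4 and 5 and a line at the arithmetic mean. Strains do not overlap in any panel, and in Fxyd3 and Dbp the triangles lie above the circles of the same strain.

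Fbp1 and Gpt2, enzymes of glucose and amino acid metabolism, were among the 15 largest increases with a gene symbol. Fbp1, fructose-1,6-bisphosphatase of gluconeogenesis, read 11.97, 25.1, 33.1, 34.2 and 23.2 in the B6-scid mice and 875, 1191, 1507, 1756 and 1227 in the NOD-scid mice. All B6-scid mice were near the lowest signals and all NOD-scid mice far above (log2 difference 4.52, SE 0.21, adjusted p = 3.1e-11). Slc2a5, the fructose transporter GLUT5, rose from 462 ± 212 in B6-scid to 1368 ± 231 in NOD-scid (1.59, adjusted p = 0.00140), with 2 further probe sets at -0.05 and 0.48. These were the 2 calls among 42 glucose genes, whose median was -0.07 (-0.08 to 0.08 over the alternatives). Pfkp, a phosphofructokinase, fell on a probe set not used for that count (log2 difference -1.69, SE 0.30, adjusted p = 0.00522), and its adjusted p was 0.0607 without mice 4 and 5.

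Gpt2, the mitochondrial alanine aminotransferase, read 955, 991, 505, 205 and 589 in the B6-scid mice and 3405, 3624, 3405, 1511 and 2433 in the NOD-scid mice. NOD-scid mouse 4 was the lowest of its group, as B6-scid mouse 4 was of the other, and the groups did not overlap (log2 difference 2.20, SE 0.36, adjusted p = 0.00164). It was the 1 call among 31 genes of the amino acid stress response, whose median was 0.42 (0.28 to 0.49) with 23 above 0 and 12 higher at an unadjusted p under 0.05, where 6.72% of all genes were. Of the others, Slc7a5, an amino acid transporter, read 1.04 (adjusted p = 0.0568) and Atf5, a stress transcription factor, 1.28 (adjusted p = 0.0895), neither called.

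Enzymes that break down arginine and urate, Arg1 and Uox, fell. Arg1, the arginase of the urea cycle, read 784, 433, 661, 606 and 862 in the B6-scid mice and 31.96, 164, 80.6, 64.8 and 64.8 in the NOD-scid mice. The strains were far apart, with NOD-scid mouse 2 the highest of its group (log2 difference -2.69, SE 0.35, adjusted p = 1.8e-04). Uox, urate oxidase, read 839, 341, 520.3, 575 and 429 in the B6-scid mice and 31.8, 73.1, 23.2, 14.8 and 21.7 in the NOD-scid mice. It was the 1 call among 23 purine genes, with every NOD-scid value under 100 (log2 difference -3.14, SE 0.35, adjusted p = 2.9e-05). Nags, which makes the activator of the urea cycle, rose from 92.7 ± 38.1 in B6-scid to 542 ± 261 in NOD-scid (log2 difference 2.03, SE 0.48, adjusted p = 0.0398), with NOD-scid mouse 1 at 97.2 among B6-scid values. Its call ended without B6-scid mouse 1, 2, 3 or 5 or NOD-scid mouse 2, 3, 4 or 5, or NOD-scid mouse 2 or 3 of 15 weeks (adjusted p up to 0.0997). Ddah1, which degrades methylated arginine, rose on 1 of 3 probe sets (log2 difference 1.72, SE 0.36, adjusted p = 0.0178), the others reading 1.12 and 1.23 (adjusted p = 0.366 and 0.0846). Its adjusted p was 0.122 without mice 4 and 5. The list of 22 arginine, urea and polyamine genes held Nags and Arg1 as its calls.

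In mitochondria, Nnt, which makes NADPH from NADH and is known to carry a deletion in the C57BL/6J strain, rose from 453 ± 83.3 in B6-scid to 1344 ± 374 in NOD-scid, without overlap (log2 difference 1.48, SE 0.21, adjusted p = 5.6e-04). Of 67 oxidative phosphorylation genes 3 fell and none rose: Cox6a1 of complex IV (-1.02, adjusted p = 7.8e-04), Atp5j of the ATP synthase (-0.77, adjusted p = 0.0232) and Ndufb5 of complex I (-0.68, adjusted p = 0.0372). None of the 3 overlapped, 48 of the 67 differences were below 0 and their median was -0.16 (-0.23 to -0.09). Of the 67, 12 had an unadjusted p under 0.05, all lower. The other probe set of Cox6a1 read -0.35 (adjusted p = 0.607). The call of Atp5j ended without B6-scid mouse 4 or 5 or NOD-scid mouse 1, 2 or 3 (adjusted p up to 0.0634), and that of Ndufb5 without B6-scid mouse 1, 4 or 5 or NOD-scid mouse 1, 2, 3 or 4, or B6-scid mouse 2 or NOD-scid mouse 3 of 15 weeks (adjusted p up to 0.0964). In the 46 antioxidant genes, 3 glutathione transferases fell beside the rise of Nnt: Gsto1 (-1.13, adjusted p = 0.00266), Gstm3 (-1.08, adjusted p = 0.00875) and Gstm5 (-0.85, adjusted p = 0.0461), the last a call that ended without B6-scid mouse 1, 2 or 3 or NOD-scid mouse 1, 3, 4 or 5, or B6-scid mouse 1 to 5 or NOD-scid mouse 1 to 5 of 15 weeks (adjusted p up to 0.117). The other probe set of Gstm3 read 0.29 (adjusted p = 0.816). None of the 6 other probe sets of Gstm5 was called, 3 of them reading -0.02, 1.17 and -0.59. Gstm genes are close copies of each other, so their probe sets may share transcripts. Prdx2, a peroxiredoxin, fell on a probe set not used for the count (log2 difference -2.41, SE 0.30, adjusted p = 9.8e-05), while 3 other probe sets read -0.06, 0.20 and -0.04.

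Lipid genes moved both ways. Fads2b, of the fatty acid desaturase family, rose from 4773 ± 2953 in B6-scid to 19639.6 ± 6002 in NOD-scid (log2 difference 2.15, SE 0.35, adjusted p = 0.00161). Elovl5, a fatty acid elongase, rose and Acaa2, a thiolase of fatty acid oxidation, fell (1.03, adjusted p = 0.0411 and -0.89, adjusted p = 0.0264), the 2 calls among 46 lipid genes. The call of Elovl5 ended without B6-scid mouse 1, 2 or 3 or NOD-scid mouse 1, 4 or 5, or B6-scid mouse 2 or 3 or NOD-scid mouse 1, 3 or 4 of 15 weeks (adjusted p up to 0.105), and that of Acaa2 without B6-scid mouse 1 or 3 or NOD-scid mouse 1, 2 or 5 (adjusted p up to 0.0777). Lpl, lipoprotein lipase, rose (log2 difference 1.01, SE 0.19, adjusted p = 0.00890), the 1 call among 14 adipocyte genes. The other probe set of Lpl read 0.21 (adjusted p = 0.861). The fat hormone Adipoq read 75.7 to 214 in B6-scid and 126 to 188 in NOD-scid (0.24, adjusted p = 0.780), and the 3 measured adipocyte markers summed to 465 to 661 in B6-scid and 419 to 646 in NOD-scid.

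Sphk1, Pde3b and Dusp8, enzymes of cell signalling, were also among the 15 largest increases. Sphk1, sphingosine kinase, read 60.2, 47.7, 37.9, 28.6 and 18.1 in the B6-scid mice and 549.8, 724, 1012, 459 and 659 in the NOD-scid mice. All B6-scid mice were under 100 and all NOD-scid mice above 400 (log2 difference 3.32, SE 0.32, adjusted p = 4.0e-06). Pde3b, a phosphodiesterase that breaks down cyclic AMP, rose from 150.2 ± 72.97 in B6-scid to 1341 ± 506 in NOD-scid (log2 difference 2.92, SE 0.39, adjusted p = 2.1e-04). Dusp8, a phosphatase of MAP kinases, rose from 149.6 ± 79.6 in B6-scid to 1154 ± 221 in NOD-scid (log2 difference 2.82, SE 0.28, adjusted p = 5.6e-06). Both Pde3b and Dusp8 had further probe sets without a call, at 0.02, 1.70 and 0.39 and at 0.52 and 1.44. Sphk1 had 1, at 0.30. Pafah2, which inactivates platelet-activating factor, rose from 49.8 ± 34.9 in B6-scid to 499 ± 151 in NOD-scid (log2 difference 2.77, SE 0.36, adjusted p = 1.6e-04). Its other probe set read 0.79 without a call. Abhd1, a member of the alpha/beta hydrolase family, rose on 2 of its 5 probe sets, at 3.17 (adjusted p = 3.9e-05) and 1.39 (adjusted p = 0.0235).

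On the probe sets counted, 7 genes of the interferon, cytokine, macrophage and class II lists fell and 1 rose. Of 41 interferon response genes 4 fell and none rose, with a median of -0.22 (-0.39 to -0.07). Apobec3, a deaminase that restricts retroviruses, read 489, 993, 746, 774 and 1479 in the B6-scid mice and 75.8, 45.4, 24.96, 46.1 and 44.4 in the NOD-scid mice. All NOD-scid mice were under 100 (log2 difference -3.49, SE 0.35, adjusted p = 5.7e-06), and a second probe set fell by 2.36 (adjusted p = 0.00156). Ly6e, a membrane protein of the Ly6 family, read 17012, 22230, 27916, 24529 and 29161 in the B6-scid mice and 2251, 2189, 2222, 3189 and 2599 in the NOD-scid mice. The NOD-scid values were close to each other and far below (log2 difference -3.25, SE 0.17, adjusted p = 1.5e-10). A second probe set of Ly6e was called at -1.64 and the third read -0.44 (adjusted p = 0.639). Bst2, the tetherin of enveloped viruses, and Ifih1, a sensor of double-stranded RNA, also fell on 1 probe set each (-1.26, adjusted p = 0.0268 and -0.73, adjusted p = 0.0463). The other probe set of Bst2 read -0.18 (adjusted p = 0.926) and that of Ifih1 0.66 (adjusted p = 0.670). The call of Bst2 ended without B6-scid mouse 4 or 5 or NOD-scid mouse 1 or 4 (adjusted p up to 0.0746), and that of Ifih1 without B6-scid mouse 2, 3 or 4 or NOD-scid mouse 2, 3, 4 or 5, or B6-scid mouse 2, 3 or 4 or NOD-scid mouse 1 to 5 of 15 weeks (adjusted p up to 0.104).

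Among 39 chemokines and cytokines 2 fell. Cxcl1, which draws neutrophils, read 651, 854, 219.7, 876 and 584 in the B6-scid mice and 51.2, 58.7, 35.8, 131 and 78.4 in the NOD-scid mice. The strains did not overlap (log2 difference -2.63, SE 0.53, adjusted p = 0.0136), and a second probe set was called at -2.22. Without mice 4 and 5 the adjusted p of Cxcl1 was 0.0931. Il15, which supports natural killer cells, fell at low signals of 36.5 to 170.4 in B6-scid and 5.24 to 64.5 in NOD-scid (-1.48, adjusted p = 0.0231), and its call ended without B6-scid mouse 1, 3 or 4 or NOD-scid mouse 2, 3 or 5 (adjusted p up to 0.0658).

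Among 29 macrophage and dendritic cell genes 1 rose and 1 fell. Fcgr1, the high-affinity receptor for IgG, rose from 269 ± 92.2 in B6-scid to 617 ± 82.1 in NOD-scid (log2 difference 1.15, SE 0.19, adjusted p = 0.00269), with its other probe set at -0.34 (adjusted p = 0.854). Ctss, cathepsin S, which prepares class II molecules for peptides, fell without overlap from 1858 ± 383 in B6-scid to 882 ± 251 in NOD-scid (log2 difference -1.07, SE 0.21, adjusted p = 0.0132). C1qb, a chain of complement C1q made by macrophages, fell on 1 probe set (log2 difference -1.07, SE 0.22, adjusted p = 0.0198) and read 0.57 on the other, so its direction is not settled. The call ended without B6-scid mouse 3 or NOD-scid mouse 1 (adjusted p up to 0.0520). The 5 macrophage markers summed to 2954 to 3960 in B6-scid and 3197 to 3826 in NOD-scid. Of 17 class II genes only Ctss was called, with H2-Eb1 at -0.58 and H2-Ab1 at -0.66 short of the threshold. On the 22 class I genes counted limma gave no call and 5 had an unadjusted p under 0.05, with a median of 0.02 (-0.08 to 0.10). H2-K1, of which NOD and C57BL/6 mice are known to carry different alleles, and H2-D1 each rose on 1 of 3 probe sets outside that count (1.03, adjusted p = 0.00331 and 0.88, adjusted p = 0.0185). The call of H2-D1 ended without B6-scid mouse 1 or 3 (adjusted p up to 0.0573). No call by limma was made in the lists of T, B and NK cells (3 of 22 genes at an unadjusted p under 0.05), mast cells and granulocytes (0 of 15), lymph node (1 of 7) and complement (6 of 22).

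Clock genes gave 1 call among 24, a fall of Dbp, a transcription factor whose RNA is known to swing strongly over the day. Dbp read 392, 444, 889, 1209.6 and 1345 in the B6-scid mice and 24.8, 112, 72.5, 117 and 138 in the NOD-scid mice. Every NOD-scid mouse was below every B6-scid mouse (log2 difference -2.77, SE 0.52, adjusted p = 0.00864), and its adjusted p was 0.0931 without mice 4 and 5. Nfil3, which acts against Dbp at the same DNA sites, rose on a probe set outside the count. It read 141, 36, 137, 106 and 168 in the B6-scid mice and 563, 409, 588, 245 and 366 in the NOD-scid mice, again without overlap (log2 difference 1.67, SE 0.26, adjusted p = 0.00151), while its other probe set read 0.53 (adjusted p = 0.706). The list median was -0.39 (-0.22 without NOD-scid mouse 1), and 13 of the 24 had an unadjusted p under 0.05, 10 of them lower, where 5.97% of all genes were. Arntl, a core activator of the clock, read 1.48 and Noct, a deadenylase, -0.89, with adjusted p of 0.0748 and 0.0601, neither called. Per1 read 48.1 to 249 in B6-scid and 32.4 to 109 in NOD-scid (-0.55, adjusted p = 0.618). The hour of collection was not in the labels used here, and its part was not tested.

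Of 31 immediate early genes, which respond within minutes to handling and growth signals, 2 fell. Nfkbia, the inhibitor of NF-kappa B, read 2622 to 3636 in B6-scid and 1399 to 2097 in NOD-scid (-0.96, adjusted p = 0.00627). Its 2 other probe sets read -0.47 and -0.98 without a call. Ier2 read 537 to 929 in B6-scid and 289.7 to 639 in NOD-scid with overlap (-0.90, adjusted p = 0.0226), and its call ended without B6-scid mouse 1 or 2 or NOD-scid mouse 1, 2 or 4 (adjusted p up to 0.0655). Hspb8, a small heat shock protein, was the 1 call among 19 heat shock genes (-1.20, adjusted p = 0.00378), at 0.0978 without mice 4 and 5. Its other probe set read -0.43 (adjusted p = 0.703). None of 34 genes of endoplasmic reticulum stress was called by limma (4 at an unadjusted p under 0.05), Xbp1 reading -0.65 (adjusted p = 0.127).

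The largest decrease with a gene symbol was that of Rpgrip1, a protein of the photoreceptor cilium, at 3300.4, 2169.8, 2353, 5786 and 7737 in the B6-scid mice and 191, 41.99, 423, 373 and 279 in the NOD-scid mice. The strains were apart by 15.3-fold on the log2(signal + 32) scale (log2 difference -3.94, SE 0.43, adjusted p = 1.6e-05), yet 3 other probe sets of Rpgrip1 read -0.25, -0.06 and -0.11. Agr2, a chaperone for mucins in the endoplasmic reticulum, fell from 713 ± 291 in B6-scid to 84.1 ± 59.3 in NOD-scid (log2 difference -2.73, SE 0.37, adjusted p = 2.4e-04). Pla2g12a, a secreted phospholipase, fell from 9828 ± 1332 in B6-scid to 1768 ± 465 in NOD-scid (log2 difference -2.48, SE 0.17, adjusted p = 1.7e-08), and its other probe set read 0.50. Snhg6, a non-coding host gene of small nucleolar RNA, fell from 2677 ± 1127 in B6-scid to 449 ± 134 in NOD-scid (log2 difference -2.45, SE 0.24, adjusted p = 4.3e-06). Cyp4f13, a cytochrome P450, fell from 557 ± 125 in B6-scid to 91.1 ± 33.4 in NOD-scid (log2 difference -2.28, SE 0.21, adjusted p = 1.8e-06), with its other probe set at -0.15.

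Further decreases of this size were Gramd3, Clmn and Zbtb21, at -2.55, -2.54 and -2.29. Their adjusted p was 0.00534, 0.00284 and 0.0124 with all mice and 0.0919, 0.0658 and 0.119 without mice 4 and 5. The 3 other probe sets of Gramd3 read 0.08, 0.65 and -0.23 without a call. Of the 4 others of Clmn, 1 was also called lower and 3 read 0.05, 0.11 and -0.46 without a call. Further increases were Eny2 (2.29, adjusted p = 0.00220), Zgrf1 (2.22, adjusted p = 0.0191) and Agap3 (2.14, adjusted p = 0.0448). None of the 4 other probe sets of Agap3 was called, 3 of them reading 0.23, -0.20 and -1.14. The other probe set of Eny2 read 0.48 (adjusted p = 0.607). The call of Zgrf1 ended without NOD-scid mouse 3 (adjusted p = 0.0523), that of Agap3 without B6-scid mouse 1, 2, 3 or 5 or NOD-scid mouse 1, 3, 4 or 5, or B6-scid mouse 1, 2 or 4 or NOD-scid mouse 4 or 5 of 15 weeks (adjusted p up to 0.106), and Eny2 read 0.0620 without mice 4 and 5. Among 30 ribosomal protein genes Rps28 fell from 74848 ± 7206 in B6-scid to 31593 ± 8433 in NOD-scid (-1.28, adjusted p = 5.6e-04). Its 2 other probe sets read -0.30 and 0.24 without a call. Rps29 rose (0.94, adjusted p = 0.0439), while its other probe set read -0.15 (adjusted p = 0.910). The call of Rps29 ended without B6-scid mouse 1, 4 or 5 or NOD-scid mouse 1 to 5, or B6-scid mouse 1, 2, 3 or 4 or NOD-scid mouse 1, 3 or 4 of 15 weeks (adjusted p up to 0.120). The 47 extracellular matrix genes held no call by limma on the probe sets counted (12 at an unadjusted p under 0.05), and Col1a1 of type I collagen rose on another probe set (1.17, adjusted p = 0.0255), with the call lost without B6-scid mouse 1 or 4 or NOD-scid mouse 2 (adjusted p up to 0.0749). The lists of skeletal muscle (3 of 19 at an unadjusted p under 0.05), proliferation (3 of 31), apoptosis (3 of 26) and steroid hormone genes (2 of 20) gave no call by limma either.

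Many calls rested on 1 of several probe sets. Of the 166 called genes with more than 1 tested probe set, 14 had more than 1 called and 152 had 1, and AI506816 was called in both directions. Whether sequence differences between the strains under the probes move these signals was not tested.

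The largest difference of all was on a probe set without a gene symbol, 98480_s_at of design A, at 20.1, 145, 100.1, 50.2 and 126 in the B6-scid mice and 58956, 68852, 49783, 63132 and 68231 in the NOD-scid mice. Every B6-scid gland was near or below the filter level of 100 and every NOD-scid gland far above it (log2 difference 9.13, SE 0.38, adjusted p = 9.3e-12). The largest decrease was 134759_at of design C, also without a symbol, at 44456, 32289.9, 23150.4, 39022 and 54479 in the B6-scid mice and 315, 645, 1222, 714 and 893 in the NOD-scid mice (log2 difference -5.68, SE 0.34, adjusted p = 4.4e-10). The values at 15 weeks, in other mice, were 8.68 and -5.52. Of the 60 calls without a symbol, 97282_at at 3.83, 92780_f_at at 3.81 and 161269_i_at at 3.52 came next among increases.

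**Figure D4:**
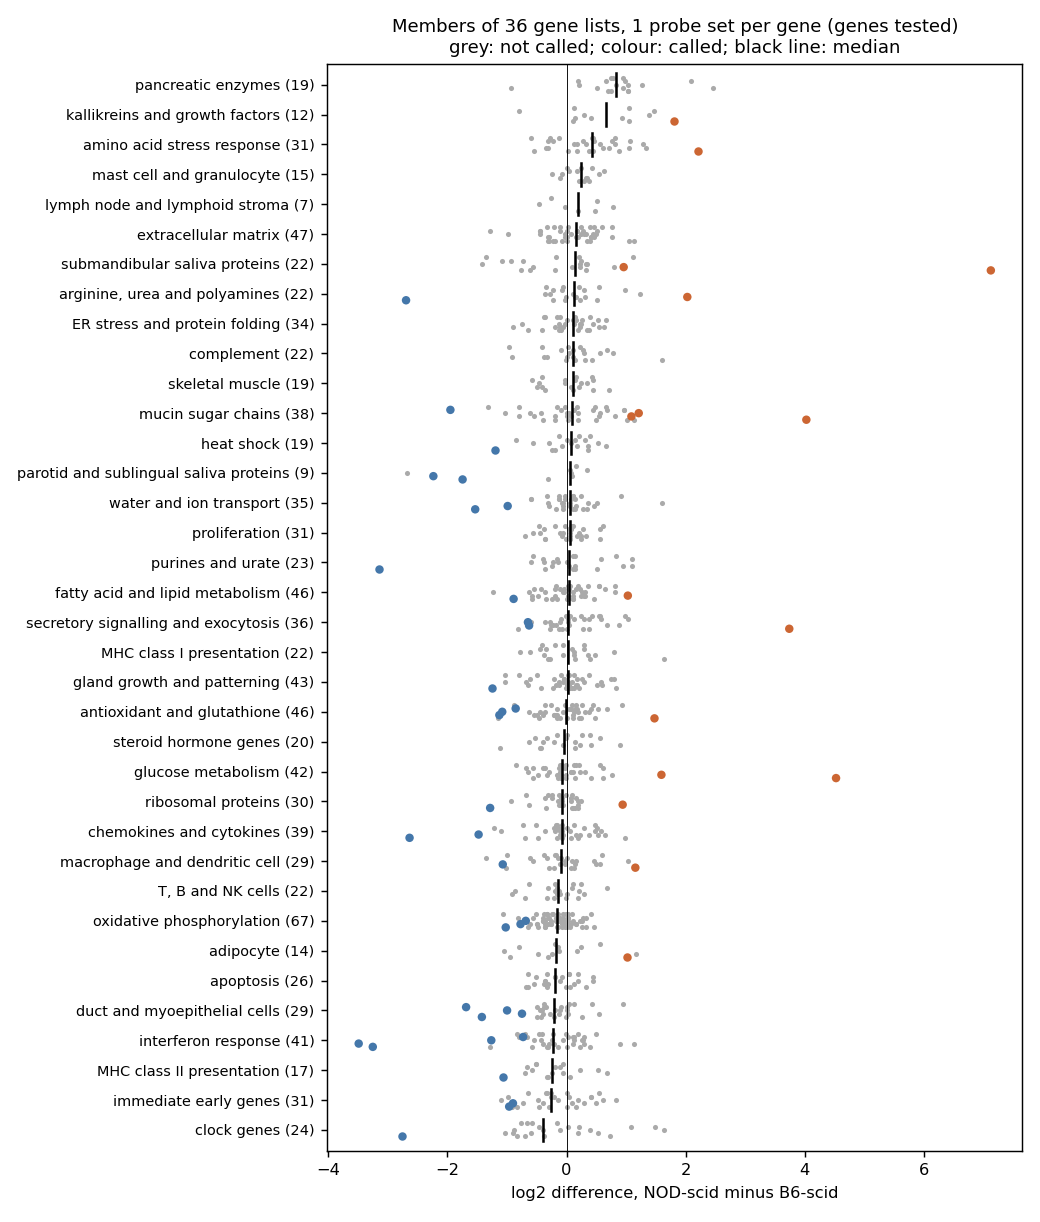
Differences between the strains at 9 weeks (NOD-scid minus B6-scid, log2 of signal + 32) of the members of 36 gene lists, 1 probe set per gene, with called members coloured and the list median as a bar. The duct list lies below 0 in 20 of 29 members and the oxidative phosphorylation list in 48 of 67. Kallikreins, whose probe sets may read the same transcripts, lie above 0 in 11 of 12. Pancreatic enzymes lie above 0 in 18 of 19, with a median of 0.83 that was 0.10 without NOD-scid mouse 1. The median over all 14762 genes was 0.02.

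Mice of 15 weeks, 5 per strain, gave a comparison in other animals within the same fit. At that age 191 probe sets were called (0.594%). Of the 359 calls at 9 weeks, 126 were also called, all in the same direction, which is 35.1% of the 9-week and 66.0% of the 15-week calls. The direction was the same for 329, and the share of like direction over all probe sets tested was not counted. Of the 359, 172 (47.9%) had no overlap between the strains at 15 weeks, against 2.83% of all probe sets tested. The median absolute difference of the 359 was 1.45 at 9 weeks and 0.83 at 15 weeks in the direction of 9 weeks, and the 359 had been chosen at 9 weeks.

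No probe set was called for a change of the strain difference between the ages by limma (0%, lowest adjusted p = 0.168), and 4.99% had an unadjusted p under 0.05. Mucl1 differed by 6.49 at 15 weeks, Fbp1 by 4.20, St6galnac1 by 4.35 and Gcnt1 by 3.07, all called again. Arg1 (-2.61), Uox (-2.64), Pam (2.84), Kcnn4 (-1.12), Fxyd3 (-1.20) and Apobec3 (-2.32) were also called again. Gpt2 read 3691 ± 1011 in B6-scid and 4372 ± 924 in NOD-scid at 15 weeks, a difference of 0.26, adjusted p = 0.9996. The change between the ages had an unadjusted p of 9.5e-04. Krt23 read -0.26, adjusted p = 0.9996, Nfil3 0.42, adjusted p = 0.912, Dbp -1.64, adjusted p = 0.304, Cxcl1 -1.33, adjusted p = 0.548 and Lpo 0.31, adjusted p = 0.944. Ly6e differed by -2.23 and was called again, with an unadjusted p of 3.5e-04 for the change. Sphk1 (1.84) and Dusp8 (1.66) were called again, with unadjusted p of 0.00379 and 0.00802 for the change.

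**Figure D5:**
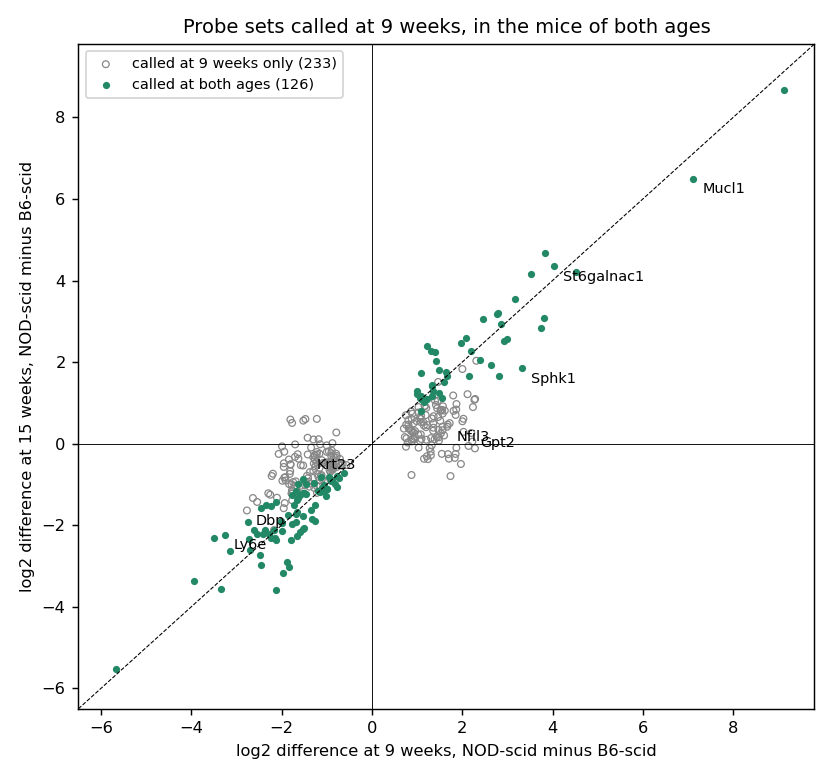
Difference between the strains (NOD-scid minus B6-scid, log2 of signal + 32) at 15 weeks against that at 9 weeks for the 359 probe sets called at 9 weeks, coloured by whether they were called at both ages (126) or at 9 weeks only (233). Most points lie in the 2 quadrants of like sign, and Gpt2 lies near 0 at 15 weeks.

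Pancreas and lacrimal gland came from further mice of the same strains. Of 319 of the 359 tested in pancreas at 6 weeks, 39 were called there (12.2%, where 0.647% of all probe sets were called), 38 in the same direction. Of 319 tested in lacrimal gland at 15 weeks, 69 were called (21.6%, where 1.19% of all were), 66 in the same direction. Over both submandibular ages, pancreas and lacrimal gland, 22 were called in the same direction, and 211 were called in none of the other 3 comparisons. Ly6e read -4.55 in pancreas and -7.10 in lacrimal gland, Fbp1 2.08 and 3.47, and Rpgrip1 -3.51 and -3.18, all called. Mucl1 read 0.14, adjusted p = 0.962 in pancreas and 3.96, adjusted p = 0.0888 in lacrimal gland. Agr2, lower in the NOD-scid submandibular gland, was higher in the NOD-scid lacrimal gland (1.07, adjusted p = 0.0130), and the difference between the glands was not tested. Kcnn4 read 0.45, adjusted p = 0.445 in pancreas and -1.97, adjusted p = 0.0513 in lacrimal gland.

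Between single mice, the calls were of unequal firmness. All 359 kept their sign under each of the 36 alternatives in which they were tested, and 180 stayed called without each of the 20 libraries in turn. The alternatives reuse the mice in which the calls were chosen, so a kept sign was close to fixed in advance. With only the 10 glands of 9 weeks in the fit, 120 of the 359 were called, and 45 were called under every alternative. Mucl1, Fbp1, St6galnac1, Pam, Sphk1, Dusp8, Pafah2, Abhd1, Rpgrip1, Apobec3, Ly6e, Uox, Agr2, Arg1, Pla2g12a, Snhg6, Cyp4f13, Nnt, Slc35a1, Fads2b, Fxyd3 and Cox6a1 were called under each alternative.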

How the data were processed

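Total RNA from whole submandibular glands, extracted in Trizol, was made into biotin-labelled cRNA and hybridised to MG-U74 version 2 arrays, per the labels' protocols. The authors deposited MAS5 signals, which the submitters' processing notes name without a version, as linear intensities whose 2% trimmed mean was 2500.45 to 2501.68 on these arrays. Detection calls were not used. Each array was rescaled to a trimmed mean of 500, and log2(signal + 32) was tested with limma 3.58.1 (lmFit and eBayes, R 4.3.3), the variance prior being taken within each array design. A probe set was tested if its scaled signal reached 100 on 4 or more of the 20 submandibular arrays, and 198 control probe sets were left out. P-values were adjusted by Benjamini-Hochberg over the 3 designs. Groups came from the sample labels. Each mouse was read once per design, so the number of mice limits the precision. Replicate numbers name different mice, so the main fit has no replicate block. Deviations of same-numbered mice correlated above 0 for every number over the 3 designs together (0.018 to 0.0873), on A (0.0489 to 0.307) and on B (0.0192 to 0.102). On C the correlations were -0.0013 to 0.0528. Over the 3 designs together, 6 of 10 mice correlated best with their own number. What same-numbered mice share was not tested.

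Of 36701 probe sets without controls, 29131 had 1 gene symbol in the platform annotation, 724 several and 6846 none, and 29044 matched the RefSeq table of GRCm38.p6 by gene ID. Probe sets with several symbols name no gene here, and no coordinates or sequences are given. Gene lists were counted with 1 probe set for each gene, taken from A, else B, else C, and within a design that of the highest mean. Named genes were the 15 largest increases and 15 largest decreases among calls without overlap, up to 5 called members of each list or its 2 lowest p where none was called, the 6 largest each way in the change between ages, and a fixed set (Prkdc, Nnt, Hc, Apobec3, Mucl1, Egf, Klk1, Klk1b11, Aqp5, Bpifa2, Dbp, Per1, Cxcl1, Cela1, Gapdh, Actb, Uox, Arg1, Fbp1, St6galnac1, Pam, Ccl21a, Adipoq, Acta1 and 1 gene that is not reported here). List members without a call, members of the single-strain group and unnamed probe sets printed beyond this rule were chosen after their values were seen. The members and lists were chosen with earlier results of these data known. The alternatives were other pseudocounts, filters, normalizations, adjustments and variance priors, the replicate block, the mice numbered 4 and 5 as a term, left out or alone, the Actb ratio as a covariate, other sets of samples, and each library left out in turn. The fit was tested on simulated data. Single values per mouse were compared with exact permutation tests (SciPy 1.17.1).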

Additional observations from a re-analysis of the deposited data

Results flagged for a closer look

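In a Dixon test of the highest or lowest of the 5 mice of a group, 21 of 250 groups stood out, where chance flags about 1 in 20. No explanation was tested for any of them. Values are scaled signals at 9 weeks, with the range of the other 4 mice of the group.

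NOD-scid mouse 1 had the pancreatic marker sum at 155539 (others 9491 to 18386), Cela1, pancreatic elastase, at 19646 (others 1563 to 2227), Ctrc, a chymotrypsin, at 9699 (others 260.4 to 1369) and Nags, of the urea cycle, at 97.2 (others 562 to 741). In B6-scid mouse 5 the pancreatic sum was low at 3817 (others 11903 to 14342). B6-scid mouse 1 had the sum of markers listed for sublingual gland at 137038 (others 8884 to 29055). Most of it was Smgc, which does not mark that gland alone.

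B6-scid mouse 4 was high in Amy1, salivary amylase, at 1812 (others 348 to 579), in Ifih1, an RNA sensor, at 1433 (others 756 to 949) and in Agap3 at 279.5 (others 56.4 to 112). NOD-scid mouse 4 was high in Dnase1 at 457 (others 62.8 to 127), Fut9 at 499 (others 62.2 to 117), Hsd17b11, a steroid dehydrogenase, at 1399.6 (others 477 to 682) and Clmn at 166 (others 85.0 to 103). Its summed macrophage markers were 3826 (others 3197 to 3321) and its 3′ to 5′ ratio of Actb on design A was 2.87 (others 1.90 to 2.11).

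The remaining values were Zbtb21 at 1914 in B6-scid mouse 5 (others 562 to 840.5), Eny2 at 31.0 in B6-scid mouse 3 (others 6.68 to 12.03), Gzmb, granzyme B, at 352 in NOD-scid mouse 3 (others 32.5 to 74.2), Hspb8 at 1066 in NOD-scid mouse 3 (others 543 to 688), Col1a1 at 1251 in NOD-scid mouse 2 (others 534 to 574) and Ndufb5 at 6140.2 in NOD-scid mouse 2 (others 8288 to 8735).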

How the results depend on the processing

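The count of 359 calls was within 1.5 times under pseudocounts of 16 (332) and 64 (382), no filter (341), quantile normalization (345), all 39 gland samples (486) and the mice numbered 4 and 5 left out (305), and stayed between 245 and 360 as each library was left out (111 to 177 higher, 134 to 214 lower). With only the 10 glands of 9 weeks it was 128, 54 higher and 74 lower, and with only the 9-week mice numbered 4 and 5 it was 131, 52 higher and 79 lower. Both leave fewer samples in the fit. Of the 359 themselves, 120 and 76 were called there, and 154 without mice 4 and 5. The same replicate number was given to different mice; with the replicate block 272 were called, 229 of them among the 359, and 6 of 10 mice correlated best with their own number. With 1 variance prior over the 3 designs, an alternative chosen after seeing the data, 302 were called. The count of changes between the ages, 0, was 1 without NOD-scid mouse 2 of 9 weeks and without NOD-scid mouse 3 of 15 weeks, and 0 without any other single library. For the named genes, 3248 tests under alternatives kept the side of the threshold, 381 lost the call and 24 gained it, and none that was called turned its sign. Signals near 100 are close to the filter, so differences there are the least precise.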

Other observations

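The genes in these paragraphs were picked with their values already known, and all were called at 9 weeks. Among those lower in NOD-scid were Rnase4, a secreted ribonuclease (log2 difference -1.68, SE 0.19, adjusted p = 3.8e-05), and Mup3, a major urinary protein, on 2 probe sets (log2 difference -1.82, SE 0.39, adjusted p = 0.0228 on the one with the lower p). The cytochromes P450 called lower were Cyp2f2 (log2 difference -1.72, SE 0.25, adjusted p = 6.3e-04), Cyp2d22 (log2 difference -2.06, SE 0.40, adjusted p = 0.00871) and Cyp46a1 (log2 difference -1.87, SE 0.42, adjusted p = 0.0278), with Fdx1, the ferredoxin that feeds mitochondrial P450 enzymes (log2 difference -1.52, SE 0.19, adjusted p = 9.2e-05). Their levels were 7849 to 20443 in B6-scid and 3091 to 4657 in NOD-scid for Cyp2f2 and 4206 to 6473 in B6-scid and 1371 to 2273 in NOD-scid for Fdx1. Perp, of desmosomes (log2 difference -1.78, SE 0.19, adjusted p = 1.9e-05), Ly6d, of the Ly6 family like Ly6e (log2 difference -2.01, SE 0.29, adjusted p = 6.2e-04), and S100a6, a calcium-binding protein (log2 difference -1.64, SE 0.17, adjusted p = 7.7e-06), fell as well. The call of Mup3 ended without B6-scid mouse 1 or NOD-scid mouse 2 or 3 (adjusted p up to 0.0658), and that of Cyp46a1 without B6-scid mouse 1, 2 or 4 or NOD-scid mouse 1, 4 or 5 (adjusted p up to 0.0791). S100a6 read 1645, 1275, 1649, 2443 and 1787 in the B6-scid mice and 588, 553, 581, 474 and 468 in the NOD-scid mice, without overlap. At 15 weeks, in other mice, the differences were -1.15 for Rnase4, -1.50 for Cyp2f2, -0.25 for Cyp2d22, -1.27 for Perp, -1.89 for Ly6d and -0.98 for S100a6.

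Among increases, Gfer, a sulfhydryl oxidase of mitochondria, read 429.7, 678, 577, 619.8 and 375 in the B6-scid mice and 1670.1, 1715, 1576, 1448 and 1542 in the NOD-scid mice, without overlap (log2 difference 1.54, SE 0.16, adjusted p = 1.4e-05). Anxa6, a calcium-dependent membrane-binding protein (log2 difference 1.06, SE 0.16, adjusted p = 7.4e-04), Phyh, a peroxisomal enzyme of branched fatty acids (log2 difference 1.36, SE 0.22, adjusted p = 0.00184), Acp5, the tartrate-resistant acid phosphatase (log2 difference 1.19, SE 0.21, adjusted p = 0.00446), and Tlr6 (log2 difference 1.42, SE 0.24, adjusted p = 0.00294) also rose. Pglyrp1 rose on 2 probe sets, with log2 difference 2.00, SE 0.45, adjusted p = 0.0278 on the one with the lower p, a call that ended without B6-scid mouse 1, 2 or 3 or NOD-scid mouse 3 or 4 (adjusted p up to 0.0815). Igha, the heavy chain of IgA, was called higher in NOD-scid at 23.97 to 91.04 in B6-scid and 85.6 to 249.5 in NOD-scid (log2 difference 1.36, SE 0.27, adjusted p = 0.0116), and Trbv1, a T cell receptor segment, lower at 485 to 696 in B6-scid and 287 to 390.2 in NOD-scid (log2 difference -0.79, SE 0.16, adjusted p = 0.0121). At 15 weeks the log2 difference was 0.39, adjusted p = 0.944, for Igha and -0.25, adjusted p = 0.915, for Trbv1.

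Called genes lay next to each other in the RefSeq gene order in 5 pairs, and in no run of 3 or more. The called genes were 273 of 14762 with a tested probe set. Whether 5 pairs are more than that share gives by number alone was not tested. The pairs were BC018473 and St6galnac1, Cbx6 and Apobec3, Epb41l4aos and Epb41l4a, Isg20l2 and Crabp2, and Tgoln1 and Tcf7l1. Both members moved the same way in 4 pairs: BC018473 read 2.09 beside 4.03 for St6galnac1, and Cbx6 -0.92 beside -3.49 for Apobec3. Crabp2, a carrier of retinoic acid, rose (1.87, adjusted p = 0.0372) and its neighbour Isg20l2 fell (-1.75, adjusted p = 0.00376). The call of Crabp2 ended without B6-scid mouse 1, 2 or 4 or NOD-scid mouse 1, 2, 4 or 5 (adjusted p up to 0.105); that of Cbx6 ended in 15 of the 20 fits that left out 1 library (adjusted p up to 0.122). Whether probe sets of neighbouring genes read 1 transcript was not tested.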
